A study of Mus musculus with 14 samples.

Results

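The genes described here are those whose transcript mix differed between Ocy454 cells with high and low surface CD61. They were chosen from the sorted libraries by the share of each annotated transcript, which is its TPM (an abundance corrected for transcript length and library depth) as a percentage of the summed TPM of its gene. A gene was kept if it had at least 500 estimated reads in every sorted library, and if the mean share of one of its transcripts differed by at least 20 percentage points between the groups with no overlap between the libraries of one group and those of the other. The rule kept 58 genes, which is 0.999% of the 5808 genes with enough reads, out of 35886 genes with a transcript in the files. Of the 5808, 5477 had 2 or more transcripts. The shares and all other comparisons of these genes between CD61high and CD61low cells are given as a description, without a test, because the same contrast chose them.

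Ocy454 is an osteocyte-like mouse line whose division depends on a heat-sensitive large T antigen. Cells are grown at a permissive temperature and differentiate once moved to 37 °C, and all libraries come from this 1 line. CD61, the integrin β3 chain encoded by Itgb3, is the surface marker by which the study separated cells within a culture. The CD61high and CD61low groups were the 10% of live, DAPI-negative cells with the highest and lowest CD61-PE signal after 17 days of differentiation, and each group holds 3 libraries. No drug or genetic change separates the groups. A separate series of unsorted cultures holds 2 libraries at each of days 1, 7, 10 and 14 of differentiation.

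Most mammalian genes yield several mRNAs. Transcription may start at alternative first exons, internal exons may be kept or skipped, splice sites may move by a few bases, and transcripts may end at alternative polyadenylation sites. Such choices are set by promoters and by RNA-binding splicing factors, and they may change the encoded protein or leave it as it is and alter only the untranslated ends. Cytoskeletal and membrane-trafficking genes are well known for exon choices that differ between cell types and stages of differentiation.

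The sorted libraries hold 18815602 to 19220064 estimated reads each, and the differentiation libraries 27518605 to 34311238 reads. Itgb3 was at 5.31 to 6.10 TMM-scaled CPM (reads of the gene relative to the library total) in CD61low and at 100 to 130 in CD61high cells. The summed level of 10 osteoblast and osteocyte markers was 17090 to 20830 in CD61low and 49170 to 51700 in CD61high libraries, and none of the 10 was lower in CD61high. Of 5 macrophage markers, Adgre1 was at 0 and the sum was 12.8 to 15.8 in CD61low and 8.18 to 8.86 in CD61high libraries. The sum of 4 chondrocyte markers, led by Sox9, was 38.7 to 48.6 in CD61low and 100.2 to 117 in CD61high libraries. Endothelial, adipocyte and skeletal muscle markers summed to at most 5.29 in any library. In bulk libraries, a changed transcript choice within cells and a changed mix of cells that make different transcripts cannot be told apart, and the part of these marker levels in the shifts was not tested.

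Of the 58 genes, 46 had 1 transcript past both limits and 12 had 2, and in those 12 one transcript rose as the other fell. For each gene, the lead transcript is the one with the largest difference among those kept by the rule. The lead transcript had a higher share in CD61high cells in 33 genes and a lower share in 25. The size of the difference ran from 20.02 to 46.5 percentage points, with a median of 23.6, against a median of 4.49 for the largest difference of any transcript over all genes with 2 or more. The read total in the poorest library was 505 to 4072 for the 58 genes, with a median of 877, and 1192 for all 5808 genes. The replicates were widely spread. The median SD of the kept transcripts was 6.22 points in CD61low and 7.98 points in CD61high libraries, and the largest was 29.4.

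The short sequences that differ between the switched transcripts show what the smallest of these changes are. They were read from the GRCm39 genome on the strand of the gene, with 15 flanking bases on each side. Capitals mark the bases that one of the transcripts holds and the other lacks. In Abi1, Madd, Dab2 and Map4k3 the rising and falling transcripts differ by a whole exon.
Abi1 exon of 15 bases, minus strand, chr2:22853211-22853255: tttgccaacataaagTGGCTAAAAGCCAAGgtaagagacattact
Madd exon of 60 bases, minus strand, chr2:90994293-90994382: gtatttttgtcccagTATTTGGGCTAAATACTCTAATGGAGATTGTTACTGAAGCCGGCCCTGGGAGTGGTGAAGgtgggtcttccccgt
Dab2 exon of 63 bases, plus strand, chr15:6454101-6454193: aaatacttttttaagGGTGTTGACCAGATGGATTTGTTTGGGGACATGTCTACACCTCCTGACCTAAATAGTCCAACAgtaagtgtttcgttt
Map4k3 exon of 63 bases, minus strand, chr17:80936700-80936792: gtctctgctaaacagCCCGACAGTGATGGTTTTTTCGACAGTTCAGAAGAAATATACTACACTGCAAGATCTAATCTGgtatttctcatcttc
In each of these the exon stands between the ag that ends nearly all introns and the gt that begins them, and each length is a multiple of 3, so that keeping or skipping it leaves the reading frame as it is.

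In other genes the edge of an exon moved. In Cbfa2t2, Hipk2 and Ehmt1 the moved piece is 3 bases long and itself ends in AG, a tandem acceptor that adds or removes 1 codon. Hipk2 and Ehmt1 were singled out for this after their values were seen.
Cbfa2t2, 3 bases, plus strand, chr2:154373127-154373159: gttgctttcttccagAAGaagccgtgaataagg
Hipk2, 3 bases, minus strand, chr6:38698515-38698547: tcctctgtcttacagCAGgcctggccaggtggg
Ehmt1, 3 bases, minus strand, chr2:24777064-24777096: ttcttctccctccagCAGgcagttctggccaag
Zfp280c, 27 bases, minus strand, chrX:47667392-47667448: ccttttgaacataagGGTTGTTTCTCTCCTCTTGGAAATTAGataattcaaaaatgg
Ptpn11, 12 bases, minus strand, chr5:121282733-121282774: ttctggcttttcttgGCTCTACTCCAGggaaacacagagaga
The bases before the Ptpn11 segment are tg and not ag, so that its longer form does not follow the usual acceptor letters at that place in the reference. Kmt2d differs from these, because its rising transcript gains 4 bases at the end of exon 23 and loses 4 at the start of exon 24, which leaves the total length of the coding sequence as it was. Once the exons are joined, the rising form reads GCAG where the falling form reads GAAG, with the same bases on both sides. The spliced sequences thus differ there in 1 base.
Kmt2d bases gained, minus strand, chr15:98753630-98753663: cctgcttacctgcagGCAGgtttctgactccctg
Kmt2d bases lost, minus strand, chr15:98753548-98753581: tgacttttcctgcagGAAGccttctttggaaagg

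Alternative first exons made up the most frequent structural difference. The rising and falling transcripts had first exons that do not overlap in 36 of 58 genes (62.1%), against 53.6% for the pair of most abundant transcripts in all 5477 genes. The ends of first exons are shown for Rin3, Per1, Gtse1 and Smarcd3, where both transcripts are annotated as protein coding. Capitals are the last 15 bases of the first exon and lower case the first 15 of the intron.
Rin3-204, rising, plus strand, chr12:102250027-102250056: AGCTTGCGCCCTCAGgttctgggaccgaga
Rin3-201, falling, plus strand, chr12:102249571-102249600: CGCCCACCCTGCCGGgtaagtggcaacccg
Per1-206, rising, plus strand, chr11:68991007-68991036: AGAGTCCCAGACCAGgtggggacctgatga
Per1-201, falling, plus strand, chr11:68989820-68989849: CGCTCGAACGGCCAGgtagggatccctgct
Gtse1-202, rising, plus strand, chr15:85744282-85744311: GTAGTAAAAAAGAAGgtaagtcctttctgt
Gtse1-201, falling, plus strand, chr15:85743981-85744010: GGTCAGAGGCGAGGGgtaaggagtggtcgt
Smarcd3-201, rising, minus strand, chr5:24806764-24806793: CTGGTCCATGGGGTGgtgagtgggggaaag
Smarcd3-208, falling, minus strand, chr5:24829331-24829360: GTCCCAAGGGAGCAGgtgagcgacccgcac

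In all that follows, a run of 3 values gives replicates 1, 2 and 3 of a group, and shares are percentages of the summed TPM of the gene. Spop (chr11:95304906-95384234) encodes the substrate adaptor of a cullin-3 ubiquitin ligase. Spop-201 was at 30.2, 30.9 and 13.1% in CD61low and at 42.7, 100 and 70.8% in CD61high libraries, a difference of 46.5 points. Spop-202 was at 50.3, 55.6 and 64.4% in CD61low and at 36.1, 0 and 27.4% in CD61high libraries. Both have the same coding sequence of 1122 bases, and an intron of Spop-202 lies within an exon of Spop-201. The values of CD61high replicate 2, at 100 and 0%, lie far beyond those of the other 2 libraries of its group.

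Entpd5 encodes a nucleoside diphosphatase of the endoplasmic reticulum that acts in the folding of glycoproteins. Entpd5-203 was at 42.2, 80.3 and 44.4% in CD61low and at 34.7, 0 and 0% in CD61high libraries. Its counterpart Entpd5-201, with another first exon and the same coding sequence, was at 57.8, 0 and 0% and at 42.6, 41.8 and 61.8%. The groups do not overlap for the former and overlap for the latter, since CD61low replicate 1 held the level of a CD61high library.

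Rin3 (chr12:102249296-102357114), an activator of Rab GTPases in early endosomes, gave one of the cleaner exchanges. Rin3-204 was at 17.0, 0 and 20.9% in CD61low and at 46.7, 59.0 and 54.9% in CD61high libraries. Rin3-201 was at 81.3, 99.5 and 77.6% and at 53.0, 39.4 and 44.4%. The rising form starts 604 bases downstream with a first exon that holds no coding bases, and its coding sequence is 2700 bases long against 2940 for the falling form. Neither form overlaps between the groups.

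Per1, a repressor of the circadian clock, also changed its first exon while its coding sequence of 3873 bases stayed as it was. Per1-201 was at 56.3, 89.2 and 77.4% in CD61low and at 55.2, 46.2 and 16.1% in CD61high libraries. The nearest libraries of the groups were thus close to each other, at 55.2 and 56.3%. The downstream form Per1-206 was at 24.4, 0 and 0% and at 22.1, 38.5 and 63.6%, and these groups overlap.

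Hoxb9, a homeobox transcription factor, was almost wholly of 1 form in CD61low cells. Hoxb9-201 was at 95.9, 100 and 95.3% in CD61low and at 81.9, 51.5 and 52.9% in CD61high libraries. The remainder was Hoxb9-202, at 4.14, 0 and 4.73% and at 18.1, 48.5 and 47.1%. Hoxb9-202 has a coding sequence of 408 bases against 750 in Hoxb9-201. The gene total was lower in CD61high cells, with a Log2FC of -0.79.

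Among chromatin genes, Kmt2d, a histone methyltransferase of enhancers, and Smarcd3, a subunit of SWI/SNF remodelling complexes, were kept by the rule. Kmt2d-201 was at 48.4, 57.0 and 78.4% in CD61low and at 24.4, 33.9 and 23.7% in CD61high libraries, which do not overlap. Use of the 4 bases gained by Kmt2d-202, shown above, was 21.3, 32.5 and 19.6% and then 71.4, 37.8 and 68.6% of the transcripts that span them. At this place the spliced forms differ only in reading GCAG or GAAG. Smarcd3-208 was at 27.7, 40.9 and 43.6% in CD61low and at 1.74, 5.98 and 20.4% in CD61high libraries. Its partner Smarcd3-201, whose first exon lies 22129 bases further downstream and holds 78 coding bases, was at 54.9, 40.1 and 33.6% and at 83.0, 71.7 and 54.9%. For Smarcd3-201 the groups meet, since its lowest CD61high and highest CD61low libraries are both at 54.9%.

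**Figure D1:**
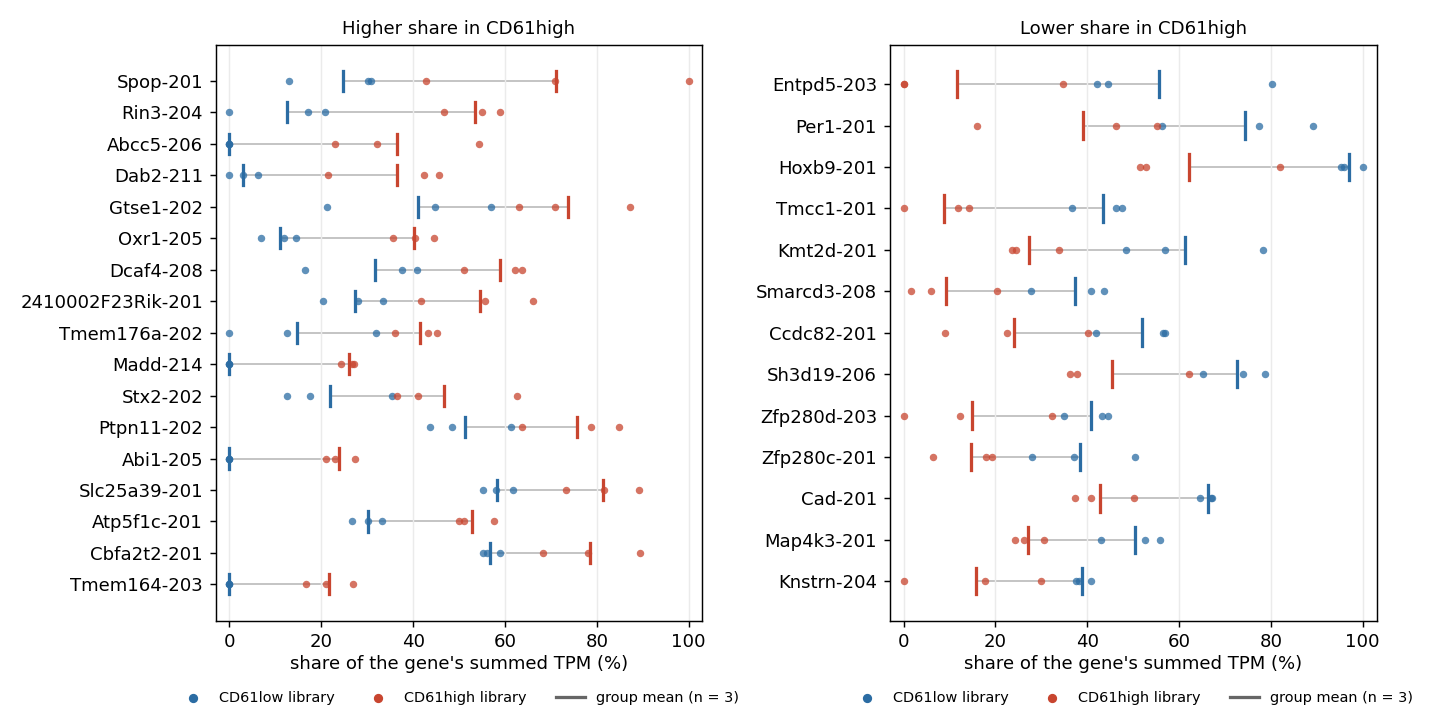
Share of the lead transcript in each sorted library for the 20 genes with the largest shifts and the next 10 whose protein-coding pair differs in coding length, on a scale of 0 to 100% of the summed TPM of the gene; dots are libraries, vertical ticks are group means (n = 3) and grey lines join the means. Lead transcripts with a higher share in CD61high are on the left and those with a lower share on the right; Madd-214, Abi1-205, Abcc5-206 and Tmem164-203 are at 0 in every CD61low library, and the gap between groups is narrow for Per1-201, Stx2-202 and Ccdc82-201.

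Gtse1 and Knstrn act in cell division. Gtse1, a microtubule-associated protein of dividing cells, was detected as 2 forms with the same coding sequence of 2223 bases. Gtse1-202 was at 57.0, 21.2 and 44.8% in CD61low and at 70.9, 87.3 and 63.0% in CD61high libraries. Gtse1-201 made up the rest. Knstrn, a protein of the spindle and kinetochore, had Knstrn-204 at 40.8, 37.5 and 38.1% and at 29.8, 0 and 17.8%. That lead transcript is 653 bases long and is annotated as coding over its whole length. The difference was -22.9 points by TPM, -6.18 by reads and -15.0 by TPM without CD61high replicate 2, where Knstrn-204 is at 0.

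Dab2 and Stx2 act in endocytosis and membrane fusion. Dab2, a clathrin adaptor, was at 0, 6.21 and 2.90% for Dab2-211 in CD61low and at 21.6, 45.6 and 42.4% in CD61high libraries. Dab2-203, which holds the 63-base exon printed above, was at 37.8, 31.8 and 30.9% and at 11.6, 0 and 0%. Over all transcripts that span this exon, inclusion was 81.3, 77.8 and 69.9% in CD61low and 44.8, 33.7 and 57.6% in CD61high libraries, so that the groups do not overlap by exon either. Stx2, a SNARE of the plasma membrane, had Stx2-202 at 12.6, 17.5 and 35.4% and at 36.6, 62.6 and 41.1%. The falling Stx2-201 carries an exon of 125 bases (chr5:129064782-129064906) of which 78 code, and the coding lengths are 864 and 867 bases.

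Abi1, a subunit of the WAVE complex that drives branched actin assembly, differed by a whole exon. Abi1-205 was at 0, 0 and 0% in CD61low and at 23.0, 21.0 and 27.4% in CD61high libraries. Abi1-206, without the 15-base exon, was at 33.0, 36.3 and 38.9% and at 17.1, 16.4 and 7.14%. Counted over all 11 transcripts that hold or skip the exon, inclusion was 46.9, 47.0 and 42.2% in CD61low and 75.1, 75.5 and 80.7% in CD61high libraries. The exon was thus used in CD61low cells too, through other transcripts, and its use was 31.8 points higher in CD61high cells.

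Madd, an activator of Rab3 GTPases and an adaptor of death receptors, shows the contrary case. Madd-214 was at 0, 0 and 0% in CD61low and at 26.7, 27.1 and 24.4% in CD61high libraries. Inclusion of the 60-base exon that separates it from Madd-210 was 38.8, 0.564 and 35.0% in CD61low and 36.8, 44.5 and 31.3% in CD61high libraries. The means were 24.8 and 37.5%, and the groups overlap by exon, with CD61low replicate 2 far below the other libraries.

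Map4k3, a kinase that takes part in amino acid signalling, used its 63-base exon less in CD61high cells. Map4k3-201, which holds it, was at 52.5, 42.9 and 55.9% in CD61low and at 24.4, 26.2 and 30.7% in CD61high libraries. Inclusion over all spanning transcripts was 56.7, 48.7 and 62.9% and then 41.3, 35.4 and 45.7%. The groups stay apart, with the nearest libraries at 48.7 and 45.7%.

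Ptpn11 encodes SHP2, a phosphatase of growth factor signalling. Ptpn11-202 was at 48.5, 43.8 and 61.4% in CD61low and at 63.7, 84.8 and 78.8% in CD61high libraries. The 12 bases that only Ptpn11-201 holds were used in 42.4, 47.6 and 28.6% and in 19.2, 14.8 and 21.2% of the transcripts that span them. The coding sequences are 1779 and 1791 bases long.

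Atp5f1c encodes the gamma subunit of the mitochondrial ATP synthase, and skipping of its penultimate exon is a known feature of heart and skeletal muscle. Atp5f1c-201, which skips the exon of 37 bases (chr2:10061581-10061617, exon 9 of 10 in Atp5f1c-203), was at 33.3, 26.7 and 30.3% in CD61low and at 57.6, 51.1 and 49.9% in CD61high libraries. The exon was included in 66.7, 73.2 and 69.7% and in 42.4, 48.9 and 50.1% of transcripts. Of its 37 bases 4 are coding, and the coding sequences are 891 and 894 bases long. The SDs of Atp5f1c-201 were 3.33 and 4.13 points, below the medians of 6.22 and 7.98 for the kept transcripts.

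Changes of 1 codon were seen in Cbfa2t2, a transcriptional corepressor, and in Hipk2, a nuclear kinase of stress responses. The Cbfa2t2 form with 3 more bases, Cbfa2t2-201, was at 56.0, 58.9 and 55.3% in CD61low and at 68.3, 78.0 and 89.4% in CD61high libraries. By segment, the 3 bases were included in 62.1, 69.2 and 71.3% and in 89.7, 81.4 and 96.6% of transcripts. The Hipk2 segment moved the other way, at 100, 91.8 and 89.7% and at 82.1, 78.4 and 70.0%. In Ehmt1, a histone methyltransferase, inclusion was 44.3, 29.3 and 54.0% and 97.2, 37.8 and 82.8%, and the groups overlap.

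**Figure D2:**
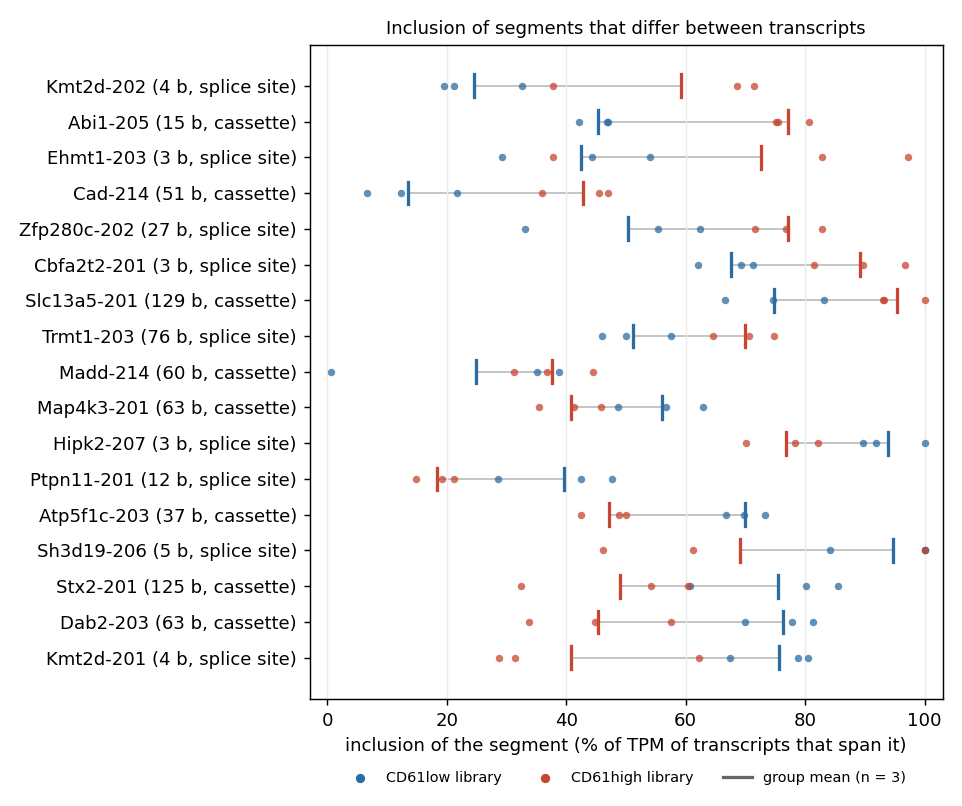
Inclusion of each internal segment of up to 130 bases with coding sequence that differs between the rising and falling transcript, as the percentage of TPM of the transcripts that span it; the label names the transcript that holds the segment, dots are libraries and ticks are group means (n = 3). The groups stand apart for Abi1, Cad, Zfp280c, Cbfa2t2 and Dab2 and overlap for Madd, Ehmt1 and Sh3d19. The Cad segment is held by 1 transcript alone, the short Cad-214, and the read share difference of Cad-201 was -4.32 points.

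Across the 58 pairs of rising and falling transcripts, 24 internal segments in 21 genes were present in one and spliced out of the other. Their inclusion is computed from the same shares that chose the genes and is given as a description. Of the segments, 14 were coding throughout and 11 of those had a length that is a multiple of 3. The exceptions are the pair in Kmt2d and the 5 bases of Sh3d19, an adaptor with SH3 domains whose lead Sh3d19-206 was at 65.2, 78.6 and 73.8% and at 37.7, 36.3 and 62.1%.

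The remaining genes with large shifts were mixed in kind. Dcaf4 encodes a substrate receptor of a cullin-4 ubiquitin ligase, and Dcaf4-208 was at 16.4, 40.8 and 37.7% in CD61low and at 51.0, 62.3 and 63.7% in CD61high libraries. Ccdc82-201 was at 57.0, 56.5 and 42.0% and at 40.3, 22.6 and 9.04%. Zfp280d-203 and Zfp280c-201, of a pair of related zinc finger genes, both fell, the former from 43.3, 34.9 and 44.6% to 32.2, 0 and 12.2% and the latter from 50.4, 28.0 and 37.1% to 6.52, 18.1 and 19.2%. In Zfp280d and Ccdc82 the nearest libraries of the groups are close, at 34.9 and 32.2% and at 42.0 and 40.3%.

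For 2410002F23Rik, 2410002F23Rik-201 was at 20.4, 28.1 and 33.4% in CD61low and at 41.7, 55.7 and 66.2% in CD61high libraries. Its coding sequence of 852 bases is shared with the falling form. Tmem176a-202 was at 31.9, 12.6 and 0% and at 43.2, 36.0 and 45.2%, also with an unchanged coding sequence. Tmcc1-201, from a gene for a membrane protein of the endoplasmic reticulum, was at 46.3, 36.7 and 47.6% and at 11.8, 0 and 14.4%. Tmem164-203 was at 0, 0 and 0% and at 16.8, 26.9 and 21.1%.

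Slc25a39, which carries glutathione into mitochondria, and Cad, the enzyme that begins pyrimidine synthesis, each had a partner that is short. Slc25a39-201 was at 58.1, 61.7 and 55.3% in CD61low and at 73.2, 81.6 and 89.3% in CD61high libraries, a difference of 23.0 points by TPM and 11.4 by reads. Cad-201 was at 64.7, 66.9 and 67.1% and at 50.3, 37.4 and 40.8%. The rising Cad-214 is 582 bases long and Cad-201 is 7137 bases long. By reads, Cad-201 held 96.2% of the estimated reads of the gene in CD61low and 91.9% in CD61high cells, a fall of 4.32 points in place of 23.4.

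The same contrast between TPM and reads held for the other short transcripts. Abcc5, an exporter of organic anions and cyclic nucleotides, was kept through Abcc5-206, a retained-intron transcript of 523 bases at 0, 0 and 0% in CD61low and at 23.0, 32.2 and 54.4% in CD61high libraries. Those shares rest on 26.9, 26.02 and 58.1 estimated reads in CD61high libraries, and the share of reads rose by 4.85 points. Oxr1, a protective factor against oxidative damage, had Oxr1-205 at 14.5, 11.9 and 6.92% and at 35.7, 44.6 and 40.5%. By reads this was a mean of 2.27% and 10.1%, from a transcript of 798 bases.

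Of the 58 lead transcripts, 11 were shorter than 1000 bases. None of these 11 differed by 20 points or more in its share of reads, their largest difference being 13.8 points, whereas 31 of the 47 longer ones did. Read shares come from the same estimated reads as TPM shares and are no independent measure of the shifts. A share of TPM divides reads by length, so that a short transcript reaches a large share on few reads.

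**Figure D3:**
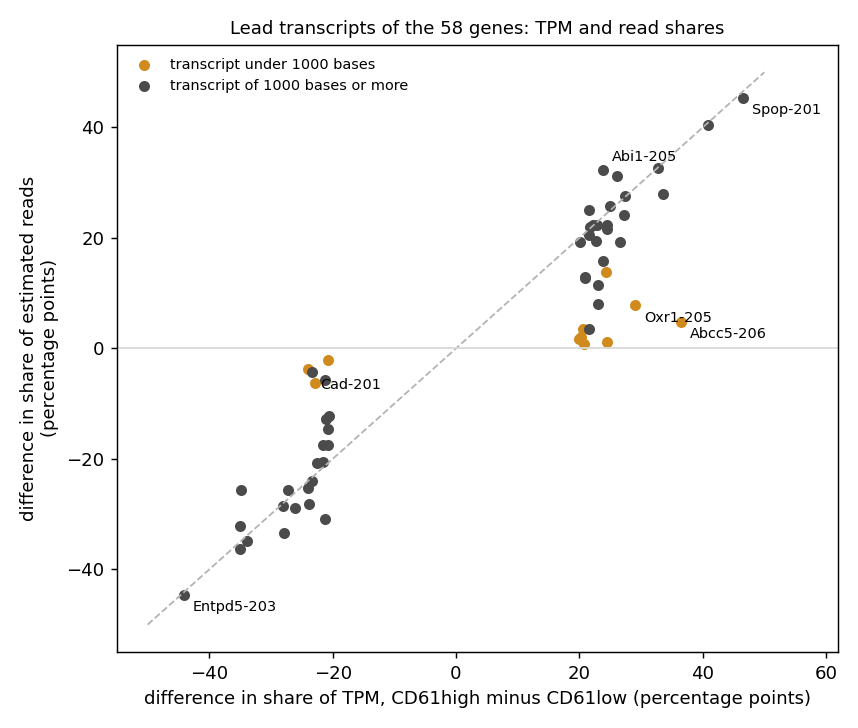
Difference in mean share between CD61high and CD61low cells (percentage points) of the 58 lead transcripts, by TPM on the horizontal axis and by estimated reads on the vertical axis; the dashed line marks equality. Transcripts of 1000 bases or more mostly lie near the line, as Spop-201 at 46.5 and 45.4, while those under 1000 bases lie nearer to 0 by reads, between 0.876 and 13.8 points in size, as Abcc5-206 at 36.5 and 4.85.

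The genes at the edge of the rule show what its limit means. Just inside were Dnajc13-213, from a gene for an endosomal co-chaperone, with a difference of 20.2 points, Usp6nl-202, from a Rab GTPase-activating protein, with 20.1, and Iqsec1-204, from an activator of ARF6, with 20.02. Dnajc13-213 was at 24.7, 25.2 and 24.9% in CD61low and at 28.2, 50.4 and 56.9% in CD61high libraries, on a transcript of 453 bases that held 1.25% and 3.38% of the reads. Usp6nl-202 was at 32.3, 37.0 and 32.4% and at 41.1, 64.2 and 56.4%. Iqsec1-204 was at 34.1, 35.1 and 40.0% and at 50.1, 59.4 and 59.8%, on a transcript of 244 bases that held 1.38% and 3.00% of the reads. Just outside were Golm2-204 with 19.9, Ei24-211 with 19.9 and Cdk2-201 with -19.7 points. Cdk2-201, from the kinase that drives entry into S phase, was at 51.3, 47.9 and 46.6% and at 29.8, 28.1 and 28.7%, and the groups do not overlap.

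The other 25 genes had lead differences of 20.6 to 24.5 points. Zfp652-203, annotated as a target of nonsense-mediated decay, was at 43.0, 38.4 and 40.9% in CD61low and at 61.3, 64.5 and 64.7% in CD61high libraries. Slc13a5, a citrate transporter of the plasma membrane, had Slc13a5-206 at 33.4, 16.8 and 25.4% and at 0, 6.84 and 6.95%, a difference of -20.6 points by TPM and -12.2 by reads. The form that fell lacks an exon of 129 bases (chr11:72152849-72152977), which was included in 66.6, 83.2 and 74.6% and in 100, 93.2 and 93.1% of transcripts. Zfp652 and Slc13a5 were singled out after their values were seen.

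Those 25 also include genes of DNA and chromosome maintenance (Stn1, Cenpi), of transcription (Taf3, Taf1d, Zfp316, Zfp318, Ing1), of RNA (Snrnp48, Trmt1, Eif4enif1), of signalling (Pik3ca, Taok3, Tiam2, Clcf1, Hipk2), of metabolism and transport (Nadk, Ak4, Slc30a7, Nbas), of chromatin (Ehmt1), of the cell cycle (Ccne2) and of collagen processing (Adamts2). Several rest on few reads, with read share differences of 1.2 points for Pik3ca-204, -2.11 for Ak4-204, 0.876 for Adamts2-202 and 3.5 for Slc30a7-204. Of all 58 lead transcripts, 14 differed by less than 10 points by reads and 31 by at least 20. By reads the groups stay apart for 55 of the 58, and overlap for Taok3-203, Tiam2-202 and Eif4enif1-203. Over all 58 genes, 8 pairs held a retained-intron form, which was the rising form in 7 genes and the falling form in 1. Across all genes, retained-intron transcripts took 6.59 to 7.14% of all TPM in the 6 libraries and the groups overlap. Transcripts annotated for nonsense-mediated decay took 2.49, 2.50 and 2.47% in CD61low and 2.27, 2.28 and 2.29% in CD61high libraries, which do not overlap.

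What the shifted pairs share can be read from their annotation. Last exons failed to overlap in 12 of 58 pairs (20.7%), against 37.1% of the most abundant pairs of all genes. A whole internal exon differed in 12 pairs (20.7%, against 26.6%) and a splice site moved in 10 (17.24%, against 19.97%). A retained-intron form was in 13.8% of the pairs, against 27.1%. Both transcripts had a coding sequence in 42 pairs (72.4%, against 57.4%), and it was the same in 11 pairs (18.97%, against 9.90%). The rising form was the shorter of the pair in 36 genes and the longer in 22, with median lengths of 2701 and 3190 bases for the rising and falling forms. These all-gene shares are a setting for the counts and not a test. No all-gene value was taken for the length of the rising form or for the direction of retained-intron forms.

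The start of the rising form lay more than 100 bases downstream of that of the falling form in 31 genes and as far upstream in 9. A different measure, the share of the downstream form, was taken over all genes whose most abundant pair has separate first exons more than 1000 bases apart. In these 2516 genes, the downstream form took on average 31.1, 30.9 and 29.1% of the pair in CD61low and 30.1, 33.1 and 31.2% in CD61high libraries. The groups overlap, CD61high replicate 2 is the highest, and the median difference was 0.302 points. The mean share of the downstream form was higher in CD61high cells in 54.3% of these genes. The part of any library-wide difference along the transcript in the shifts was not tested.

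Summing transcripts by what they share shows at which level the shifts persist. When transcripts with overlapping first exons were summed, 36 genes passed the same limits, 30 of them among the 58. With transcripts of the same coding sequence summed, 45 genes passed, 41 of them among the 58. With overlapping last exons summed, 10 passed, 7 of them among the 58. These sums were chosen after the data had been seen.

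The gene totals were examined next. In the sorted cells, 1 of 58 genes passed an adjusted p below 0.01 with a Log2FC above 1 (edgeR), beside 4.84% of all genes, and 2 passed with a Log2FC below -1, beside 4.37%. These counts are a description, since the rule used the same contrast. Ak4, a mitochondrial adenylate kinase, was at 41.3, 40.0 and 43.2 TMM-scaled CPM in CD61low and at 105, 95.3 and 96.8 in CD61high libraries. Dab2 was at 87.7, 91.0 and 91.5 and at 34.8, 42.4 and 38.1. Oxr1 was at 141, 161 and 150 and at 53.5, 45.1 and 45.6. None of these 3 genes overlapped between the groups, and the Log2FC was 1.25, -1.23 and -1.65. Of the 58 genes, 45 had a Log2FC between -0.5 and 0.5, among them Abi1 at -0.05, Madd at -0.03 and Spop at 0.33. When library size alone set the scale, the median Log2FC of all genes was -0.29 in place of 0.00, and 0 members passed above 1 and 3 below -1.

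The differentiation libraries, which the rule did not use, allow a test of the gene totals. Their CPM values, as used here, are per gene and hold no transcripts. Each day was compared with day 1 by limma on log2(CPM + 1) over 12725 genes. The p-values measure only the spread between the 2 libraries within a day, pooled over all days and moderated over all genes. The paper calls the libraries of a day biological duplicates. At day 7, 4 of the 58 genes were higher and 1 lower, beside 4.49% and 4.62% of all genes. At day 10, 3 were higher and 2 lower, beside 6.06% and 4.42%. At day 14, 4 were higher and 3 lower, beside 7.51% and 5.90%. At day 14 the share of the 58 genes called in each direction was near that of all genes.

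Ak4 rose most. It was at 2.36 and 1.35 CPM in the libraries of day 1, at 35.4 and 35.5 at day 7, at 19.5 and 17.3 at day 10 and at 88.4 and 94.7 at day 14 (Log2FC 5.04 ± 0.11 SE at day 14, limma adjusted p = 3.95e-24). Slc13a5 rose from 17.3 and 16.9 CPM at day 1 to 273 and 274 at day 14 (Log2FC 3.92 ± 0.04, limma adjusted p = 1.0e-30). All later libraries of both genes were above both libraries of day 1, with day 10 below days 7 and 14. Dcaf4 rose from 17.5 and 17.6 to 106 and 115 CPM (Log2FC 2.59 ± 0.06, limma adjusted p = 1.46e-23). Hipk2 rose from 29.3 and 27.8 to 86.8 and 77.2 CPM (Log2FC 1.49 ± 0.05, limma adjusted p = 3.54e-19).

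Dab2 fell during differentiation as it was lower in CD61high cells. It was at 107 and 112 CPM at day 1, at 33.7 and 31.5 at day 7, at 51.2 and 49.7 at day 10 and at 30.6 and 30.9 at day 14 (Log2FC -1.80 ± 0.05, limma adjusted p = 6.64e-21). Cad fell from 323 and 317 to 121 and 105 CPM (Log2FC -1.498 ± 0.05, limma adjusted p = 4.81e-20). Abcc5 fell from 115 and 110 to 42.9 and 37.1 CPM (Log2FC -1.47 ± 0.06, limma adjusted p = 4.23e-18). In these 3 genes every later library was below both libraries of day 1. Oxr1, with the largest difference among the 58 genes in the sort, did not pass the fold limit at day 14, at a Log2FC of -0.58.

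**Figure D4:**
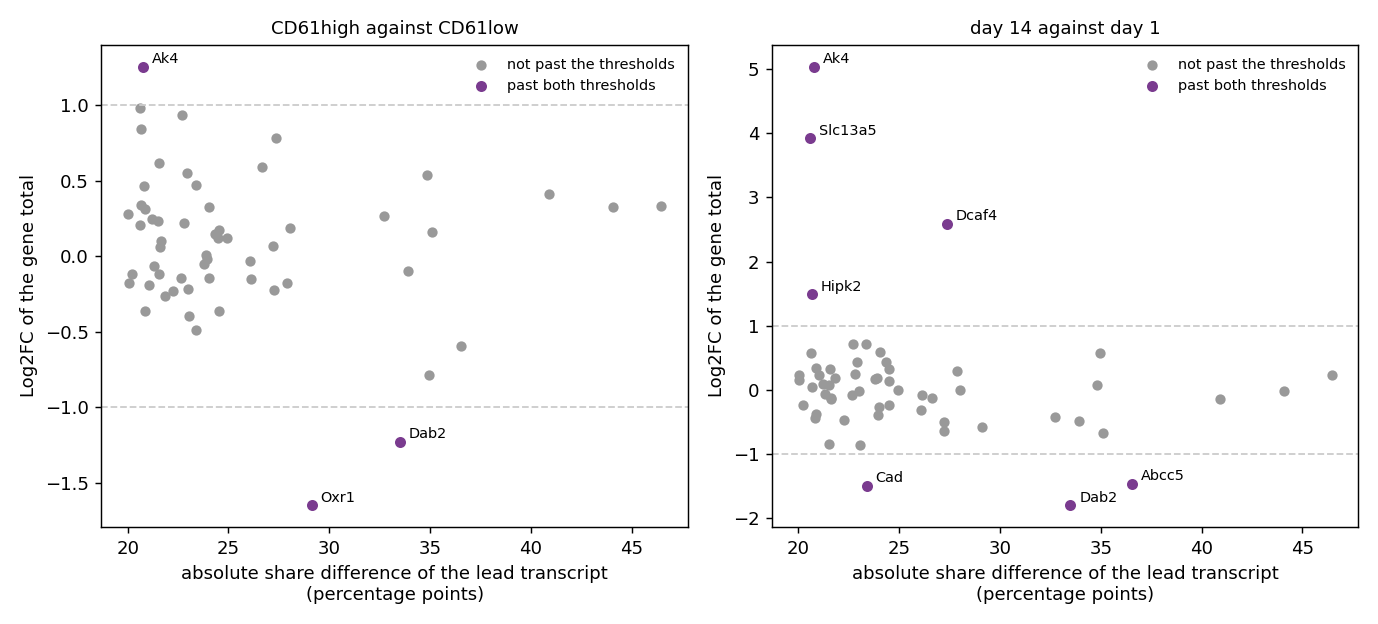
Log2FC of the gene total of the 58 genes in sorted cells (left) and at day 14 against day 1 (right), against the absolute share difference of the lead transcript in percentage points; purple marks genes past an adjusted p below 0.01 and the dashed Log2FC limits of 1 and -1. Ak4, Dab2 and Oxr1 are past them in the sort, and Ak4, Slc13a5, Dcaf4, Hipk2, Dab2, Cad and Abcc5 at day 14; Spop, with the largest share difference, lies between the limits in both.

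Genes that control RNA processing were examined as a group, and whether they bear on the shifts was not tested. The group holds splicing regulators, spliceosome, polyadenylation, decay and export factors, and 144 were tested in the sort with edgeR. None passed the fold limits in either direction. At an adjusted p below 0.01 with any fold, 7 were higher and 33 lower in CD61high cells, beside 19.4% and 16.0% of all genes, and at an unadjusted p below 0.05 the counts were 16 and 57, beside 29.3% and 27.3% of all genes. With any fold, library size alone gave 0 higher and 101 lower, and a replicate block gave 3 and 21. DESeq2 also called 0 in either direction past the fold limits. The median Log2FC was -0.15, against 0.00 for all genes, and -0.45 against -0.29 when library size alone set the scale.

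The 5 factors with the largest fall past an adjusted p of 0.01 and the one with the largest rise were named after their values were seen. Celf2, a splicing regulator, was at 6.98, 6.62 and 7.71 TMM-scaled CPM in CD61low and at 3.70, 4.15 and 4 in CD61high libraries (Log2FC -0.85 ± 0.15 SE, edgeR adjusted p = 0.00118). Srsf10, a splicing regulator of the SR family, was at 145, 165 and 166 TMM-scaled CPM in CD61low and at 97.3, 101 and 95.1 in CD61high libraries (Log2FC -0.70 ± 0.08, edgeR adjusted p = 3.82e-05). Tra2b, an activator of exon inclusion, was at 128, 135 and 125 and at 81.7, 90.9 and 87.8 (Log2FC -0.58 ± 0.07, edgeR adjusted p = 9.66e-05). Prpf3, of the spliceosome, was at 139, 133 and 132 and at 89.2, 84.8 and 90.0 (Log2FC -0.61 ± 0.07, edgeR adjusted p = 3.74e-05). Cstf3, a cleavage and polyadenylation factor, was at 36.1, 35.0 and 35.3 and at 22.6, 25.6 and 22.1 (Log2FC -0.60 ± 0.09, edgeR adjusted p = 0.000272). The groups do not overlap for any of these 5. Rbm20, known for the splicing of titin, went the other way, at 14.8, 16.5 and 20.6 and at 30.3, 23.8 and 25.4 (Log2FC 0.62 ± 0.14, edgeR adjusted p = 0.00401).

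At day 14 of differentiation, 143 of these factors were tested by limma, of which 1 was higher and 4 lower past the fold limits, beside 7.51% and 5.90% of all genes. With any fold, 23 were higher and 79 lower, beside 32.6% and 36.0% of all genes. The factor that rose was Celf4, from 8.53 and 8.53 to 19.2 and 21.6 CPM. Rbms3, Sfpq, Khdrbs3 and Snrnp70 fell, as Sfpq from 379 and 390 to 172 and 159 CPM (Log2FC -1.21 ± 0.04, limma adjusted p = 6.79e-20). All 5 were named after their values were seen.

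None of the 58 genes is in the lists of RNA processing, bone, cytoskeletal or known alternatively spliced genes, beside 0.999% of all eligible genes, a rate at which lists of this size hold few members or none. Of 76 genes listed for known splice choices 63 had enough reads, of 77 cytoskeletal and adhesion genes 60, of 47 bone and osteocyte genes 30, and of 71 splicing regulators 51. The nearest to the rule, named after their values were seen, were actin regulators. Evl-201 was at 27.1, 31.2 and 30.0% in CD61low and at 46.9, 49.1 and 44.9% in CD61high libraries, a difference of 17.6 points. Enah-213 was at 18.9, 21.4 and 7.09% and at 0, 0 and 0%. Tpm2-203, a tropomyosin form, was at 44.6, 51.4 and 42.9% and at 59.9, 61.5 and 64.0%. None of these 3 overlapped between the groups, and their differences were below the limit of the rule.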

How the data were processed

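Estimated counts and TPM per transcript were made by the authors with Salmon from paired-end, polyA-selected libraries against the GRCm39 transcriptome, release 104, and deposited without further normalization. For the differentiation libraries the authors deposited CPM per gene, from STAR and HTSeq. The tool versions are not given in the sources used here. Of the deposited CPM values, 100% lay within 0.01 of a whole number of reads, and 0 columns were left unused. Transcripts were assigned to genes with GENCODE M39 (115556 of 116747 matched), which is newer than release 104: of the 116 rising and falling transcripts 77 changed in length, by a median of 133 bases, so distances between starts follow M39.

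Shares were computed as stated in the report. Estimated counts were summed per gene and rounded, and edgeR 4.0.16 was run after TMM scaling on genes that reached 5 normalized counts in each sorted library. The SE printed with an edgeR Log2FC was derived from the test, as the size of the Log2FC over the square root of its quasi-likelihood F. CPM values were tested with limma 3.58.1 on log2(CPM + 1), for genes above 1 CPM in at least 1 library, and a Log2FC of CPM is on that scale and understates low genes. P-values were adjusted by Benjamini-Hochberg over all genes tested, and a gene was called past 0.01 only if its Log2FC was also outside -1 to 1. On simulated data, the edgeR fit over 12521 genes recovered 99% of genes changed by 1.5 in log2 and the limma fit over 12432 genes 100%, and the share rule recovered 99.5% of 200 shifted genes of 4210. The simulated share shifts were larger than the limit of the rule, in genes with a dominant transcript and more reads than the rule asks. Reads were drawn straight to transcripts, without correction for length. The simulation therefore does not measure shifts near the limit or errors in Salmon's division of reads. DESeq2 1.42.0, edgeR on recovered reads and the other alternatives are in the closing section. At day 14, edgeR on the recovered reads called 1293 genes higher and 1002 lower past both limits, where limma called 956 and 751.

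Members and lists were chosen with earlier results of these data known. Named genes are the 20 with the largest share difference, the 10 next whose transcripts are both protein coding with different coding lengths, the 3 nearest on each side of the limit, and others said in the report to have been picked later. The sorted replicates are described as independent groups of cells; chi-square per gene between replicates was 7.17 to 20.8 in the sort and 2.35 to 6.74 in the time course, above counting noise. Depth limits transcripts with few reads, and Salmon's uncertainty in dividing reads among transcripts was not analysed here. Of the 58 genes, 1 is not named here, and others are given by name and range alone.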

Additional observations from a re-analysis of the deposited data

How the results depend on the processing

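The count of genes kept depends strongly on the limits of the rule. It was 37 by share of estimated reads (29 of them among the 58), 147 and 20 with at least 200 and 1000 reads, and 156 and 19 with limits of 0.15 and 0.25. It was 75 over protein-coding transcripts alone. Summed by first exon it was 36 and by last exon 10, and leaving out 1 library gave 81 to 155 (155 without CD61high replicate 1, and 90 to 115 without CD61high replicate 3 or any of CD61low replicates 1, 2 and 3), where fewer libraries have to stay apart. Between 40 and 51 of the 58 were kept when a library was left out. By the study's methods both gates were sorted from the same 3 groups of cells, so the libraries are likely matched, but the sources used here do not say that equal replicate numbers mark the match, and same-numbered libraries did not deviate together in every pair (correlations of deviations -0.32, 0.22 and -0.06), so no block was used for the values reported. Between libraries of different number the correlations ran from -0.41 to 0.47, the highest for CD61low replicate 3 with CD61high replicate 1. A match under other numbers was not tested. With the replicate block in place of no overlap, the count was 78. In a sorted-cell fit with the replicate block, RNA processing factors at any fold were 3 higher and 21 lower. DESeq2 gave 11 higher, and library size alone gave 0 higher and 101 lower, with 1 past the lower fold limit, as did the fit with no low count filter. The 6 fits without a library gave 1 to 6 higher and 15 to 33 lower, with 15 lower without CD61low replicate 2 and 17 without CD61high replicate 3. Among the 58 genes, library size alone gave 0 higher, and leaving out a library gave 1 to 4 higher and 2 lower in the sort (4 without CD61low replicate 3 and 3 without CD61high replicate 2). At day 7, edgeR on recovered reads gave 2 lower in place of 1, leaving out a library 1 to 2 (2 without either library of day 1 or replicate 2 of day 7), and at day 10 2 to 3. Leaving out a library gave 3 to 5 RNA processing factors lower at day 14. The cause was not tested where the construction does not show it. Of 261 share differences of named transcripts under alternatives, 12 moved by more than their SD between replicates and none changed sign. Of these 12, 10 moved when shares were taken by reads (out of 33 transcripts), and the others were Madd-214 and Abi1-205 over protein-coding transcripts alone. In the sorted libraries, 23 lead transcripts were at 0 in at least 1 library, while 40 genes had a transcript kept by the rule that was above 0 in all and 48 had one with at least 100 reads in every library of a group; these last 2 filters were chosen after the data had been seen.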
